A study of Drosophila melanogaster with 13 samples.

Results

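Pita binding sites that remained detectable whatever stood at the amino end of the protein were described here. They are the peaks of the Pitawt FLAG list that overlapped, by at least 1 bp, both a peak of the PitaΔZ FLAG list and a peak of the PitaZ276 FLAG list. Of the 1792 Pitawt FLAG peaks, 663 met this rule (37%), and they are called shared sites below. Another 449 Pitawt FLAG peaks met a PitaZ276 peak and no PitaΔZ peak, 6 met a PitaΔZ peak and no PitaZ276 peak, and 674 met neither. The lists behind these counts end at unlike thresholds, given below. The sites were chosen by their FLAG peak calls, so FLAG enrichment at them is given as a description, and neither it nor the overlap is tested.

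Chromatin immunoprecipitation and sequencing was done on whole adult Drosophila melanogaster, 2 to 3 days old. All 3 lines carried the pita1attP allele, with y1w1118 named only for the PitadeltaZ line, and differed in the FLAG-tagged protein: Pitawt, PitadeltaZ (PitaΔZ here, without the zinc finger-associated domain, or ZAD) or PitaZ276 (with the ZAD-like domain of human ZFP276 in its place). FLAG and Pita antibodies were each used on 2 libraries of every line, and 1 preimmune library from the Pitawt line makes 13 libraries in all. The labels do not give what drives the transgenes, and a whole fly mixes every cell type, so fewer bound cells and less binding per cell cannot be told apart. The deposited data were 6 peak lists with 6204 peaks, each joined from a pair of peak lists and each set against the same preimmune library.

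Pita belongs to the zinc-finger architectural proteins of flies, which are known for their part in insulators and domain boundaries, including boundaries of the bithorax complex. Its array of C2H2 zinc fingers contacts DNA. Its amino-terminal ZAD does not contact DNA but pairs one ZAD protein with another, and such pairing is held to bring distant sites together.

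Each list gives a fold enrichment over background as the authors' peak caller computed it. All lists share the preimmune library, they have no spread between replicates, and the depth behind them is unknown. Folds therefore describe and rank peaks within a list and are set side by side, without a test, between lists.

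The shared sites lay towards the strong end of the Pitawt and PitaZ276 FLAG lists and made up nearly all of the shorter PitaΔZ FLAG list. Their Pitawt FLAG fold ran from 3.24 to 227 with a median of 25.6, while the other 1129 peaks of that list had a median of 7.23. In PitaΔZ FLAG the fold at the shared sites ran from 3.78 to 380 (median 30.6), and in PitaZ276 FLAG from 2.93 to 127 (median 18.4). These folds come from the first of the joined lists, which was the weaker in PitaZ276 FLAG: in the authors' deposited table the −log10 p at shared sites had a median of 170 in the first and 372 in the second, against 288 and 295 in Pitawt and 243 and 235 in PitaΔZ. When the Pitawt FLAG list was divided by fold into 5 bins of equal size, 324 of the strongest 359 peaks were shared sites. The next bins held 205 of 358, 92 of 358, 27 of 358 and 15 of 359. Of the 100 strongest peaks of each list, 99 in Pitawt, 100 in PitaΔZ and 100 in PitaZ276 lay at shared sites. The strongest Pitawt peak outside the set, rank 56 with a fold of 71.6 and nearest to sncRNA:400 on X, was called in PitaZ276 and not in PitaΔZ.

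The set took up very different shares of the lists. Shared sites held 660 of the 685 PitaΔZ FLAG peaks (96.4%), 664 of the 1243 PitaZ276 FLAG peaks (53.4%) and 663 of the 1792 Pitawt FLAG peaks (37.0%). The rule is thus set almost entirely by the shortest list, that of PitaΔZ. Some neighbouring sites shared a peak elsewhere: 14 shared sites met 7 PitaΔZ FLAG peaks between them, and 12 met 6 PitaZ276 FLAG peaks.

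Few sites lay near the edge of the rule. The 3 shared sites with the smallest overlap, at CG42326, lncRNA:CR44365 and tRNA:Phe-GAA-1-5, still overlapped a PitaΔZ peak by 256, 261 and 265 bp. The 3 peaks that came closest without being included, at tRNA:Pro-CGG-2-2 on 3L, at CG4364 on 2L and on 2R from 5753876 to 5755382, missed by 133, 239 and 263 bp.

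The strongest site lay between CG34130 and CG6073 on chromosome 3R (dm6, 26187920 to 26189893), in a gap of 196 bp. Its FLAG fold was 227 (Pitawt), 370 (PitaΔZ) and 94.6 (PitaZ276), ranking 1, 2 and 5 among the 663 sites. With the Pita antibody it had 320 in Pitawt and 43.5 in PitaZ276, and it is not listed in PitaΔZ. It stood near the top of every list that holds it.

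The site between Rala, a Ras-like small GTPase gene, and Tlk, which encodes Tousled-like kinase, had FLAG folds of 219, 380 and 127 in the same order of lines (X, 3719249 to 3720938). It ranked second in Pitawt and 1 in both altered lines, and its Pita folds were 281 in Pitawt and 59.8 in PitaZ276. The site at ATPsynC, the gene of subunit c of the mitochondrial ATP synthase, had FLAG folds of 178, 283 and 104 (3R, 31218379 to 31220054). The site at Men-b, a malic enzyme gene, had 152, 258 and 104 (3R, 27150755 to 27152407). The site at Socs36E, which encodes a suppressor of cytokine signalling, had 142, 329 and 117 (2L, 18152027 to 18152886). These 5 sites lay between genes, and each ranked among the first 10 in all 3 FLAG lists.

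Other strong Pitawt sites ranked lower in PitaΔZ. The site at fzr, whose product activates the anaphase-promoting complex, had FLAG folds of 178, 89.6 and 59.6 and ranked 3, 80 and 25 among the 663 (X, 4666093 to 4667420). The site inside nemy had 141, 83.2 and 87.3, with ranks of 8, 92 and 8 (2R, 12664114 to 12667376). The site inside the Hox gene Abd-B, 2522 bp from its nearer end, had 123, 106 and 60.4, with ranks of 13, 56 and 21 (3R, 16969395 to 16970744). The site inside CG2121 had 115, 79.6 and 89.0 (ranks 14, 98 and 7), and that at lncRNA:CR45717 had 109, 64.3 and 55.8 (ranks 15, 133 and 29). All 5 were also listed with the Pita antibody in every line.

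The remaining sites of the 15 strongest in Pitawt FLAG kept high ranks in each line. In the order Pitawt, PitaΔZ, PitaZ276, Tmhs had 155, 147 and 81.5, and CR46447 inside the nuclear receptor gene Hr4 had 136, 140 and 52.5. The heparan sulfate sulfotransferase gene sfl had 125, 194 and 66.2, and Galphai, a G protein subunit gene, had 125, 215 and 89.1. The site at cindr, an adaptor protein gene, had 128, 363 and 60.7, but its PitaΔZ peak also met the shared site at dj-1beta. Of the 15, 10 lay between genes. The sites at brn, a glycosyltransferase gene, with 101, 329 and 82.8, at T48, a gene of gastrulation, with 101, 231 and 67.2, and at CG32295 inside the spinophilin gene Spn, with 90.8, 256 and 60.0, were outside those 15 but among the 10 whose lowest rank over the 3 lists was highest.

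**Figure D1:**
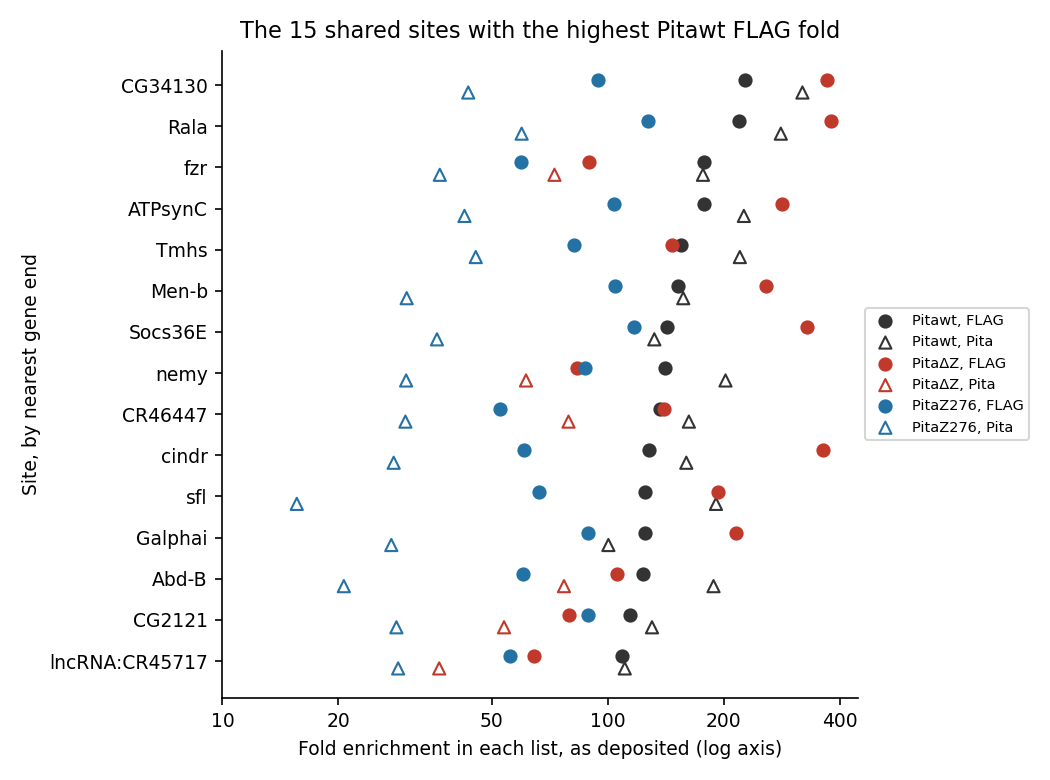
Fold enrichment (horizontal, log axis) at the 15 shared sites with the highest Pitawt FLAG fold, 1 row a site, named by the nearest gene end. Filled circles are FLAG lists and open triangles Pita antibody lists, coloured by line; the PitaΔZ Pita triangle is missing at 9 of the 15 sites, and PitaZ276 FLAG runs from 52.5 to 127.

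Ranks at some sites moved widely between lines. The l(3)76BDm site ranked 185 of 663 in Pitawt FLAG (fold 39.7) and 651 in PitaΔZ FLAG (5.54). Likewise the site inside Psi, a splicing regulator gene, went from rank 114 (52.5) to 625 (7.28), and that at Hr39, a nuclear receptor gene, from 207 (37.1) to 652 (5.51). With the Pita antibody the same 3 sites had folds of 47.6, 71.7 and 31.1 in Pitawt and of 2.75, 2.70 and 4.13 in PitaΔZ. In the opposite direction, the site at Cdk8, the kinase gene of the Mediator complex, was last in Pitawt FLAG (3.24) and ranked 475 in PitaΔZ FLAG (14.7). The next weakest Pitawt sites, at twy, Sec13, side-II and lncRNA:CR44590, had Pitawt folds of 3.86 to 4.29. The sites at CG11964 (5.98 against 58.2) and inside twy (3.86 against 31.1) also rose in rank, but each shares its PitaΔZ peak with a neighbouring shared site, and at twy the PitaΔZ summit lay 2225 bp away.

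The same 3 sites ranked 493 (l(3)76BDm), 476 (Psi) and 521 (Hr39) in PitaZ276 FLAG. By percentile within the whole lists, the largest falls towards PitaZ276 were at other sites. Those at CG42326, CG6329 and CG30197 had Pitawt FLAG folds of 26.2, 24.4 and 27.4 (ranks 320, 348 and 306) and PitaZ276 FLAG folds of 6.55, 7.16 and 8.22 (ranks 637, 626 and 598). The sites at CG41378 and at the ribosomal protein gene RpS3 had Pitawt folds of 5.76 and 4.85 and PitaZ276 folds of 10.6 and 8.00. The joined lists are not known to be separate libraries, so a value in each is no replicate check, but ranks by −log10 p can be given for both. At Psi the ranks were 28 and 28 in Pitawt FLAG, 550 and 559 in PitaΔZ FLAG and 285 and 423 in PitaZ276 FLAG. In both joined lists l(3)76BDm and Hr39 also ranked lower in PitaΔZ, and Cdk8 higher, than in Pitawt. CG42326 did not keep its fall towards PitaZ276, with ranks of 324 and 348 in Pitawt FLAG against 638 and 267 in PitaZ276 FLAG.

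The FLAG lists placed the summits at the same positions to within a short distance. From the Pitawt FLAG summit, the median distance was 12 bp to the PitaΔZ FLAG summit and 17 bp to the PitaZ276 FLAG summit. The joined lists inside Pitawt FLAG themselves differed by a median of 9 bp, those inside PitaΔZ FLAG by 11 bp and those inside PitaZ276 FLAG by 23 bp. At 88.8% of shared sites the PitaΔZ FLAG summit lay within 50 bp of the Pitawt one (95% interval 86.2 to 91.1), and at 82.2% the PitaZ276 FLAG summit did (79.1 to 85.0). Between the joined lists the corresponding shares were 94.6% in Pitawt FLAG (92.6 to 96.2), 95.3% in PitaΔZ FLAG (93.4 to 96.8) and 72.2% in PitaZ276 FLAG (68.7 to 75.6). Summits of PitaΔZ and Pitawt thus lay within 50 bp of each other less often than summits inside either list did, while for PitaZ276 the share was below that inside Pitawt and above that inside PitaZ276.

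**Figure D2:**
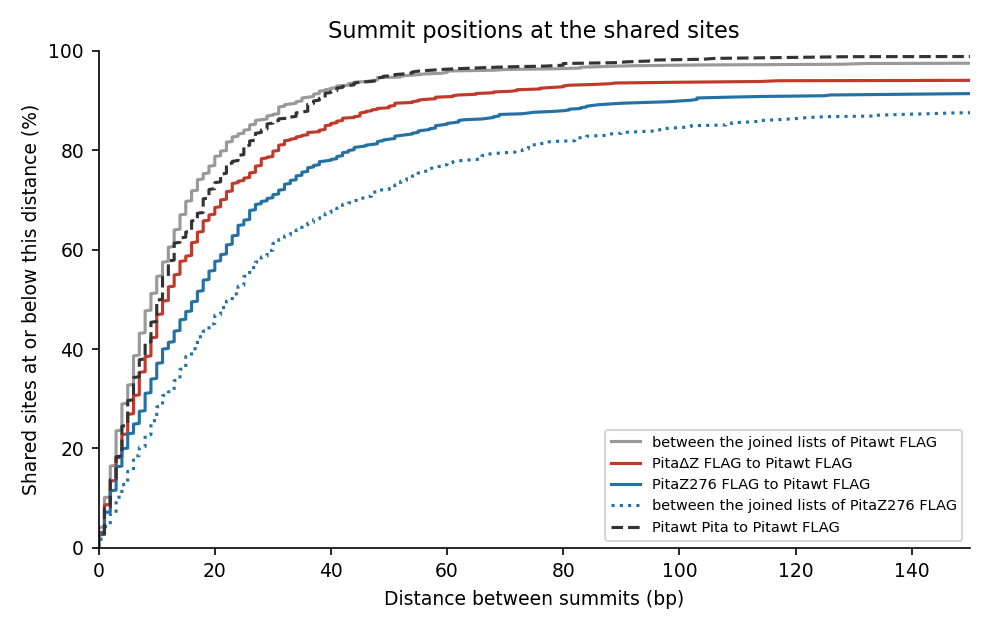
Share of shared sites (vertical, percent) whose 2 summits lie at or below the distance on the horizontal axis (bp). Solid red and blue lines give PitaΔZ and PitaZ276 FLAG against Pitawt FLAG, the dashed line Pitawt Pita against Pitawt FLAG (584 sites), and the grey and dotted lines the joined lists of Pitawt and PitaZ276 FLAG; the dotted line is the lowest throughout most of the range.

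The Pita antibody lists did not choose the sites, although they share the preimmune library with the FLAG lists. Each detects the same protein in the same line as a FLAG list that did choose them. The rule required a FLAG peak in both altered lines, and of the other 1129 peaks only 6 met a PitaΔZ FLAG peak. Higher Pita shares of shared sites in the altered lines are thus partly built in and are no independent result. In Pitawt, 584 of the 663 shared sites met a Pita peak (88.1%, exact Clopper-Pearson interval 85.4 to 90.5), where 63.8% of all Pitawt FLAG peaks did. In PitaΔZ, 632 sites did (95.3%, 93.4 to 96.8), where 41.1% of all Pitawt FLAG peaks did. In PitaZ276, 416 sites did (62.7%, 58.9 to 66.4), where 26.5% of all Pitawt FLAG peaks did. Among the other 1129 Pitawt FLAG peaks the shares were 49.5%, 9.21% and 5.23%. These intervals cover counting error only. The PitaZ276 Pita list is the shortest, with 492 peaks, and its joined lists were the least alike. At the shared sites it holds, the −log10 p in the authors' deposited table had a median of 19.1 in the first and 609 in the second.

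All 3 Pita antibody lists held 378 of the shared sites (57.0%), and 5 sites were in none. Those 5 were at Brca2, a gene of homologous recombination, with a Pitawt FLAG fold of 14.4, and at asRNA:CR46050 (5.32), side-II (4.23), Sec13 (3.89), a gene of vesicle coats and nuclear pores, and twy (3.86). Apart from Brca2 they were among the weaker shared sites. Pitawt and PitaΔZ without PitaZ276 accounted for 180 sites, with a median Pitawt FLAG fold of 17.7, against 34.8 for the 378. Sites listed with the Pita antibody in PitaΔZ alone numbered 60.

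The PitaΔZ Pita list had no entry at many of the strongest shared sites. It lacked 31 of the 663, and 23 of these were among the 31 shared sites whose PitaΔZ FLAG peak ranked in the first 30. The other 8 of those 31 are listed. All 23 met a PitaΔZ FLAG peak with a fold of at least 142, which at dj-1beta is the cindr peak counted again, with its summit 1407 bp away and a Pitawt FLAG fold at dj-1beta of 19.6. They were listed with the Pita antibody in Pitawt and in PitaZ276. They include the sites at Rala, CG34130, ATPsynC, Men-b, Socs36E, Tmhs, brn and T48. The 8 absent sites outside those ranks had PitaΔZ FLAG folds of 4.91 to 31.1. The highest fold in the PitaΔZ Pita list was 106. Whether the list as read here is complete at its top is not known, so the PitaΔZ Pita shares, among them the 95.3% of all shared sites, and the count of 378 sites in all 3 lists are lower than they would be if entries at its top are missing.

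**Figure D3:**
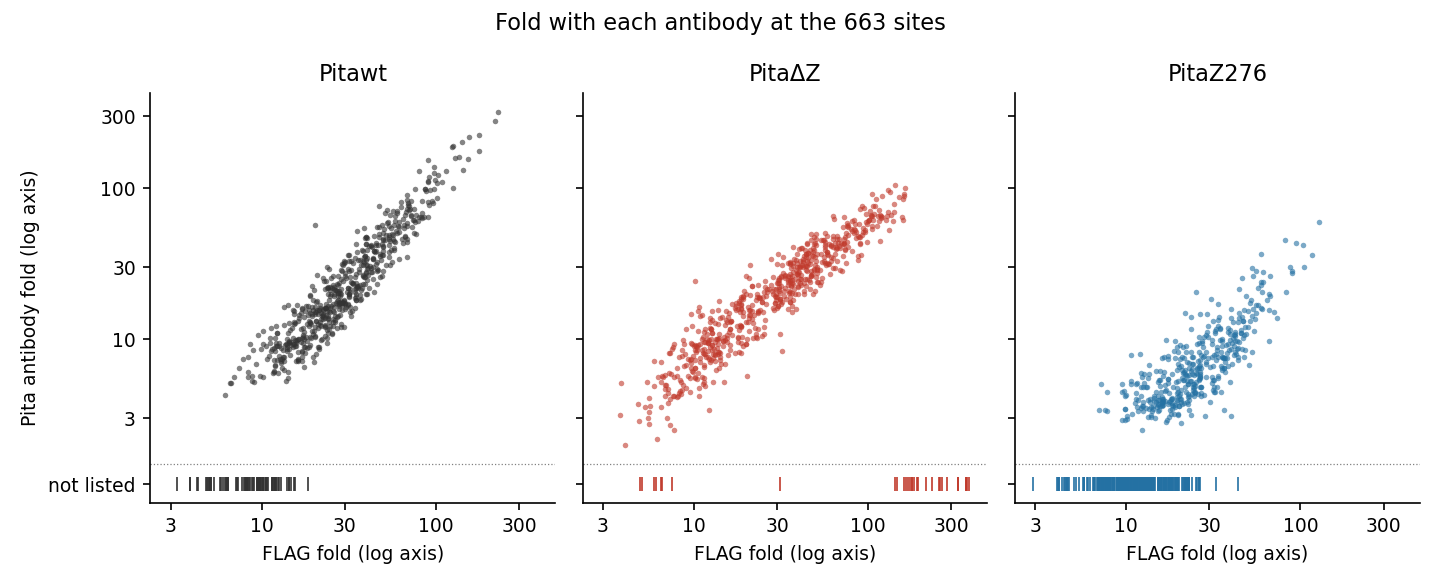
Pita antibody fold (vertical, log axis) against FLAG fold (horizontal, log axis) at each of the 663 shared sites, 1 panel a line; ticks under the dotted line are sites not in that line's Pita list. In Pitawt and PitaZ276 the ticks lie towards low FLAG folds, while in PitaΔZ 23 of the 31 ticks lie at FLAG folds of 142 or more.

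A group of 79 shared sites had no Pita peak in the wild-type line. Their Pitawt FLAG folds were low (median 9.09, highest 18.4), and their PitaΔZ and PitaZ276 FLAG medians were 12.8 and 9.31. Among all 663 shared sites, 632 were listed with the Pita antibody in PitaΔZ (95.3%), and each had a PitaΔZ FLAG peak by the rule. Of the 79, 74 were listed with it, a similar share, with a median fold of 10.0. Examples are the sites at SmD1, a spliceosome core gene, with a Pitawt FLAG fold of 12.4 and PitaΔZ folds of 30.7 with FLAG and 24.9 with the Pita antibody, and at RpL26, with 8.36, 12.3 and 9.96. In the middle bin of Pitawt FLAG folds (8.34 to 13.5), 54 of 92 shared sites had a Pitawt Pita peak (58.7%, 47.9 to 68.9), fewer than the 212 of 266 other peaks (79.7%, 74.4 to 84.4). The difference of -21.0 percentage points (-32.1 to -10.1) was -11.4 when bins were taken by −log10 p. With every list shortened to equal length it was -1.47, but the middle bin then held other, stronger peaks, of which 67 of 68 shared sites had a Pitawt Pita peak, so that value does not bear on the folds of 8.34 to 13.5.

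In the strongest bin, 324 of 324 shared sites and 35 of 35 other peaks had a Pitawt Pita peak. The PitaΔZ Pita share of shared sites was 93.2%, 98.0%, 98.9%, 100% and 73.3% from the strongest to the weakest bin, and among the other peaks it was 25.7%, 20.9%, 12.4%, 6.95% and 2.03%. In PitaZ276 the shares fell with the fold in both classes, from 87.3% to 0 of 15 sites in the shared class and from 42.9% to 0 of 344 in the other. Counts of 0 allow shares of up to 21.8% and 1.07% by the exact interval. In the altered lines the differences between classes are partly built in, since the rule required a FLAG peak in both.

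**Figure D4:**
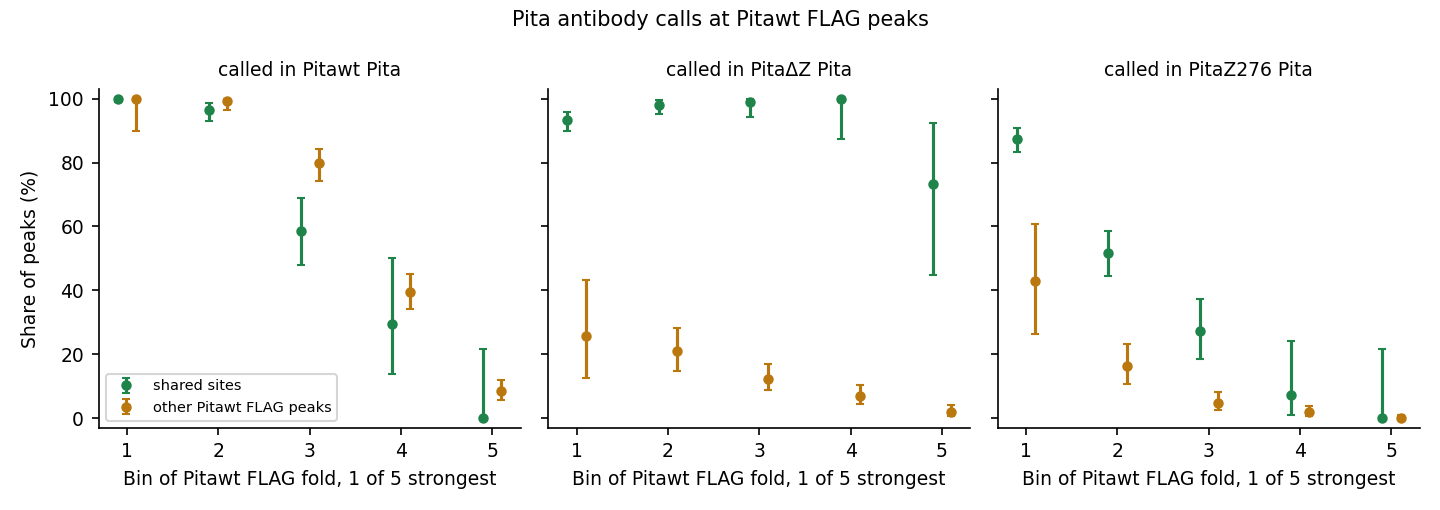
Share of Pitawt FLAG peaks (vertical, percent) that met a Pita antibody peak of each line, by bin of the Pitawt FLAG fold (horizontal, 1 strongest), for shared sites in green and all other Pitawt FLAG peaks in orange. Bars are exact 95% intervals. The classes lie apart in the PitaΔZ panel in every bin, where the rule itself required a PitaΔZ FLAG peak at shared sites. They overlap or reverse in the Pitawt panel.

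The shared sites lay mostly in the gaps between genes. Of the 660 on the main chromosomes, 407 had their Pitawt FLAG summit outside every annotated gene (61.7%, 57.8 to 65.4), where 35.7% of all Pitawt FLAG summits did. Among the other Pitawt FLAG peaks it was 230 of 1125 (20.4%, 18.1 to 22.9), and 29.9% of bases lie between genes. Position was not used to choose the sites. Peaks met by PitaZ276 FLAG but by no PitaΔZ FLAG peak lay between genes in 24.9% of cases (20.9 to 29.2), and those called in neither line in 17.1% (14.3 to 20.1).

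The difference held within each bin of strength. In the strongest bin 67.4% of shared sites (62.0 to 72.5) and 22.9% of the other peaks (10.4 to 40.1) lay between genes, a difference of 44.5 percentage points (27.5 to 56.4, Newcombe interval). The difference was 30.3 points (20.0 to 39.5) in the next bin, 33.1 (21.7 to 43.9) in the middle, 28.8 (10.2 to 47.2) in the fourth and 24.8 (4.24 to 49.3) in the weakest. Shared sites were more often between genes in every bin, and likewise in every bin taken by −log10 p, with differences of 26.5 to 47.1 points. In the strongest bin the difference was 27.3 points with a 50% reciprocal overlap and 66.7 with equal list lengths, which left few other peaks in it. In the weakest bin it was 17.6 points (-4.11 to 49.0) with that overlap and 12.6 (-8.16 to 48.3) with summits within 100 bp, intervals that include 0. In the middle bin the peaks met by PitaZ276 alone were at 25.7% (18.9 to 33.5), below the 54.3% (43.6 to 64.8) of the shared sites. Peak width moved with the class as well, with a median of 1553 bp at shared sites and 807 bp at the others, and its part in the result was not tested.

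The gaps were shorter than those around the other peaks, and most shared summits lay near a gene end. The gap around a shared site between genes had a median length of 646 bp, against 3036.5 bp for the other peaks between genes and 465 bp for all gaps of the annotation. A gene end lay within 500 bp of 473 of the 660 summits (71.7%, 68.1 to 75.1), where 55.6% of all Pitawt FLAG summits and 18.1% of bases lie that close. For the other peaks the share was 46.1%. Ends of 2 or more genes lay within 500 bp of 39.8% of shared summits (36.1 to 43.7), where 27.6% of all Pitawt FLAG summits had them, and of 20.4% of the others. The median distance from a shared summit to the nearest end was 159 bp, and 591 bp for the others. The annotation used has no strand, so starts and ends of genes cannot be told apart.

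Within bins the distance to gene ends was less even than the position between genes. From strongest to weakest, 75.2%, 69.8%, 69.6%, 53.8% and 66.7% of shared sites lay within 500 bp of an end, against 40.0%, 49.0%, 48.1%, 46.4% and 43.7% of the others. The intervals overlapped in the fourth and the weakest bin, which hold 26 and 15 shared sites on the main chromosomes. Sites without a Pitawt Pita peak were between genes in 49.4% of cases (37.9 to 60.9) and the rest in 63.3% (59.3 to 67.3).

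**Figure D5:**
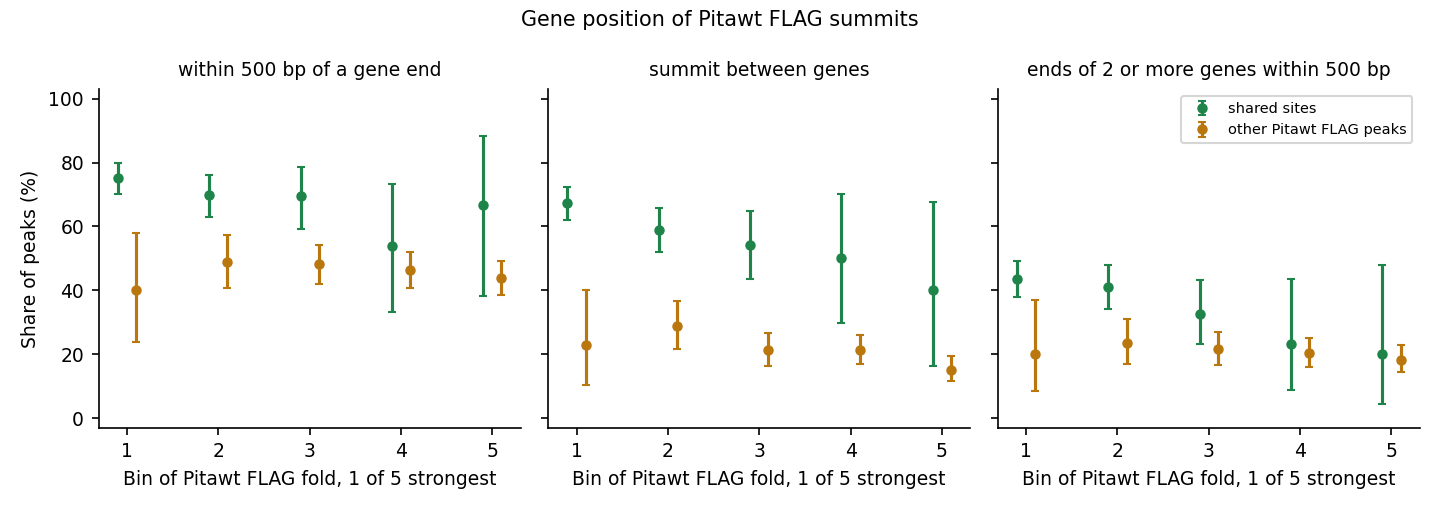
Share of Pitawt FLAG summits (vertical, percent) within 500 bp of a gene end, between genes, and with ends of 2 or more genes within 500 bp, by bin of the Pitawt FLAG fold (horizontal, 1 strongest). Shared sites are green and the other peaks orange, with exact 95% intervals; in the middle panel the green points run from 40.0% to 67.4% and the orange ones from 15.2% to 28.8%.

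Shared sites were spread over the genome. Chromosome X held 5.95 per Mb, 2L 5.43, 3R 5.02, 3L 4.50 and 2R 4.29, while chromosome 4 held 2 sites (1.57 per Mb). The median distance to the nearest other shared site was 52286 bp, and 95 of 660 had another within 10000 bp. Runs of 3, each within that distance of the next, lay near ScsbetaA and mRpL1 on 3R, DCTN3-p24 on 2R, Rab5 on 2L and CG7768 on 3L. The run near mRpL1 spans 7284 bp and includes sites at Sgt1 and tex.

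A shared summit lay within 500 bp of either end of 752 of the 17684 annotated genes (4.25%). For protein-coding genes, which make up most of the lists below, it was 706 of 13922 (5.07%). Genes of the cytosolic ribosome stood above both shares, but they did so in the whole Pitawt FLAG list too. Any Pitawt FLAG peak reached 24 of the 86 listed ribosomal protein genes. It reached 1505 of the 17684 genes and 1381 of the 13922 protein-coding genes. The higher share is thus not particular to the shared sites. Of the 86 genes, 19 had a shared site (22.1%), each a different site. Their median FLAG fold was 39.4 (Pitawt), 59.4 (PitaΔZ) and 27.8 (PitaZ276), and their median rank among the 663 was 189, 147 and 168. Most were also in the Pita lists, 16 for Pitawt, 19 for PitaΔZ and 12 for PitaZ276. The strongest were at RpS15Aa (FLAG folds 79.2, 61.1 and 42.1 in Pitawt, PitaΔZ and PitaZ276), RpL22 (72.4, 159 and 44.1), RpL17 (57.8, 59.4 and 66.4) and RpS14a (51.7, 108 and 42.6). The weakest was RpS3 (4.85, 6.42 and 8.00), whose PitaΔZ peak also met the neighbouring site at Sec13. A neighbouring gene end was closer at RpL22 and RpS14a, so those sites cannot be assigned to the ribosomal protein gene alone.

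Other genes of protein synthesis and energy metabolism were reached in smaller numbers. For the mitochondrial ribosome it was 6 of 73 genes, led by mRpL13 (67.3, 112 and 32.0) and mRpL47 (53.8, 32.8 and 32.6). Oxidative phosphorylation had 6 of 87. Besides ATPsynC these were UQCR-Q, a complex III subunit gene (74.6, 94.4 and 45.5), the complex I genes ND-B8 (44.3, 40.3 and 28.7) and ND-B14.5B (37.9, 92.9 and 36.4), and the ATP synthase genes ATPsynD (42.0, 69.1 and 48.7) and ATPsynF (28.4, 28.8 and 26.4). Translation factors had 6 of 53, led by eIF4G2 (42.8, 45.4 and 26.9), eIF1 (32.6, 41.1 and 25.4) and the elongation factor gene eEF2 (31.6, 47.2 and 26.8). The proteasome had 3 of 48 and aminoacyl-tRNA synthetases 1 of 33, HisRS (55.0, 36.7 and 25.4). With lists this short, a share above 4.25%, or above the 5.07% of protein-coding genes, can rest on 1 or a few genes.

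Genes of the nucleus followed the same range. Spliceosome genes were reached at 4 of 30, with snRNP-U1-C (40.2, 87.5 and 43.9) and snRNP-U1-70K (31.3, 49.5 and 23.0) the strongest. General transcription had 4 of 71, including Taf1, a TFIID subunit gene (43.7, 46.7 and 24.4), and Polr2E, a polymerase subunit gene (25.3, 90.3 and 23.9). Polycomb and trithorax genes had 3 of 22: trx, a histone methyltransferase gene (71.3, 42.4 and 16.4), the chromatin remodeller gene kis (40.3, 18.9 and 33.7), and Pc (28.7, 23.5 and 18.4). Cell cycle genes had 3 of 34, with the checkpoint gene mad2 (36.4, 39.5 and 26.0) and Cdk4 (9.44, 11.8 and 7.04) beside fzr. The Cdk4 site is also the RpLP2 site, already counted for the cytosolic ribosome. Its summit lay 318 bp from RpLP2 and 363 bp from Cdk4, so it cannot be assigned to Cdk4 alone. Replication had 2 of 21, Orc4, an origin recognition complex gene (31.7, 38.8 and 26.4), and dup, the Cdt1 gene (17.7, 37.7 and 15.4). The nuclear pore list had 1 of 22, Nup205 (86.1, 136 and 60.7), which ranked 34, 35 and 19 among the 663.

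No gene of the architectural and insulator protein list (0 of 27) and none of the Hox and segmentation list (0 of 26) had a shared summit within 500 bp of an end. At any Pitawt FLAG peak these lists had only 2 and 0 genes. With 4.25% of all genes and 5.07% of protein-coding genes reached, lists this short can hold none, so the zeros do not set the shared sites apart. The site at Abd-B lies inside the gene, 2522 bp from its nearer end and so outside that window. The site inside pita itself lay 885 bp from the end of the caspase gene Dcp-1, with FLAG folds of 11.8, 5.48 and 4.64. Among small RNA genes, 7 of 295 nuclear tRNA genes were reached by 5 sites, which include the RpL17 site counted above. Of 306 snRNA and snoRNA genes, 1 was reached. Genes typical of muscle, neurons, germline, and fat body or gut had 1 of 15 (Mlc1), 1 of 12 (brp), 1 of 17 (osk) and 1 of 11 (Jon65Ai). Those tissue lists are too short to place the sites in a tissue.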

How the data were processed

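ChIP-seq libraries came from whole adult flies, with chromatin fixed in 1% formaldehyde for 15 min, per the labels' protocols. Per the submitters' processing notes, cutadapt, Bowtie2, Picard, bedtools, MACS2 and deepTools were used with build dm6; no versions are stated. The authors deposited 6 lists of 20 columns without headers, in the layout an irreproducible discovery rate (IDR) tool writes when joining 2 lists. From that layout and the values, the deposited fold enrichment is a ratio to background, the p- and q-values are on a −log10 scale, and the score is the −log10 IDR. In every list the fold, p and coordinates are those of the first joined list. No file holds read counts, so depth is unknown, and nothing says which library stands behind which joined list.

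Peaks were matched by an overlap of at least 1 bp, and the overlapping peak with the nearest summit gave the value. Shares have exact Clopper-Pearson 95% intervals and differences of shares Newcombe 95% intervals, which cover counting error over peaks only; no p-value was computed. Genes were the 17684 of the RefSeq Release 6 table, which has no strand, so the planned distance to a gene start became distance to either end, within 500 bp. A planned search of sequences for motifs was left out, since a genome sequence was not used.

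Sites are named by the nearest gene end. By rule the text named the 15 strongest in Pitawt FLAG, the 10 with the highest lowest percentile over the FLAG lists, the 3 largest rises and falls in percentile towards each altered line, the 5 weakest, up to 5 without a Pita peak, up to 4 per gene list, 3 on each side of the overlap rule, and pita, Orc4 and Abd-B; further genes of the lists were named after their values were seen. Sites and the 20 gene lists were chosen with earlier results of these data known. Alternatives were a 50% reciprocal overlap, summits within 100 bp, higher thresholds (−log10 IDR 2, −log10 q 5 and 10, fold 4), equal list lengths, the chromosome arms alone, gene end windows of 200 and 1000 bp and protein-coding genes only; bins by −log10 p in place of fold, ranks by −log10 p in each joined list, and the list settings applied to the position between genes were chosen after seeing the data. The code for overlaps was tested on simulated data. Software was Python 3.11.15, numpy 2.4.6, pandas 2.3.3, scipy 1.17.1 and matplotlib 3.10.9.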

Additional observations from a re-analysis of the deposited data

How the results depend on the processing

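No paired analysis was possible because the 2 joined lists of a file carry no replicate number and are not known to be separate libraries, and because a file lists only peaks found in both; for the same reason no replicate was left out. The sequence alternatives were not run. The set held 663 sites by the 1 bp rule and 502 to 663 under the other list settings, with 504 at equal list lengths. Of 117 comparisons of main values, 95 stayed within the spread allowed, 22 moved and 0 reversed. The 95 include comparisons that could not change, so the tally does not measure how stable the results are. A −log10 q of at least 5 left every FLAG list at its main length, which fixed all values from FLAG lists alone. At −log10 q of at least 10 the set still held 663 sites. Shares, counts and distances have no sign, so only differences could reverse. The share of shared sites between genes stayed at 61.7 to 64.1% under the list settings and with protein-coding genes only, most of them applied to it after seeing the data. The share of other peaks between genes was 24.7% with a 50% reciprocal overlap and 31.5% at equal list lengths. The difference in the strongest bin was 27.3 and 66.7 points under those settings, and that in the next bin was 53.7 at equal list lengths. With 50% reciprocal overlap the Pita shares were 67.3% (Pitawt), 68.3% (PitaΔZ) and 21.1% (PitaZ276). With a summit distance of up to 100 bp they were 91.5% in PitaΔZ and 58.4% in PitaZ276. With −log10 IDR of at least 2 they were 82.4% in Pitawt and 29.8% in PitaZ276. In PitaZ276 the share was 55.2% and 42.1% at −log10 q of at least 5 and 10 and 51.1% at a fold of at least 4. At equal list lengths it was 85.4% in PitaZ276 and 89.8% in PitaΔZ, and the middle-bin difference in Pitawt Pita peaks was -1.47 points, over a different and stronger set of peaks. A window of 200 bp put 54.5% of sites, 46 list genes and 471 genes of any kind near a gene end, and 1000 bp put 80.9% of sites there. Windows and list lengths change what is counted; beyond that the cause was not tested. Shares that use the PitaZ276 Pita list are thus the least settled.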
